A study of Mus musculus with 9 samples.

Results

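The 10640 regions described here are all the accessible regions on mouse chromosomes 8 and 19, out of 124230 in the whole genome. Chromosome 8 held 6757 of them and chromosome 19 held 3883. A region was made by merging the peaks of 9 ATAC-seq libraries wherever they shared 1 bp or more, and a library with a peak inside it counts as calling it. The 2 chromosomes were chosen by their numbers of called regions, which differed most there between the R172H and the null line, so values for that pair are a description and were not tested. The ratio of mean calls in the R172H line to those in the null line was 1.41 on chromosome 19 and 1.36 on chromosome 8, the highest among autosomes. Just outside the selection were chromosome 2, with a ratio of 1.34, and chromosome 6, with 1.33. Chromosome X, with 1.52, lay above both members.

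The libraries came from 3 cell lines grown from primary mouse osteosarcomas, which are tumours of bone-forming cells. The R172H line carried p53R172H/-, with 1 mutant allele, the R245W line carried p53R245W/-, and the null line was p53-/-, so no line had a wild-type p53 allele. Each genotype was represented by 1 line with 3 libraries, all from cells in DMEM with serum and antibiotics, and differences between genotypes and between lines cannot be told apart. The labels do not say whether each library had a culture of its own, so p-values measure the spread between libraries, which may be technical. Read depth is unknown. The libraries had 65199 to 79424 peaks, and the most frequent background in the genome, a relative measure of depth, ran from 4.77 to 6.39 fragments. Of 10 osteoblast genes checked, 8 had a peak at an end in all 9 libraries, among them Runx2, Sp7 and Col1a1, and Bglap and Ibsp had none. Of 10 genes of other cell types, Krt8 had such a peak in all 9 libraries, Ptprc, Pecam1, Adipoq and Cdh5 had none, and the rest had one in some libraries.

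ATAC-seq marks accessible DNA with the Tn5 transposase, which cuts where nucleosomes do not block it, mostly at promoters and enhancers. For each peak the deposited lists give the fold of the pile-up over its local background (column 7) and a -log10 q-value (column 9). When the number of fragments rises in a peak and around it alike, as it does with more copies of the DNA, the fold stays level while the pile-up, the background and the -log10 q-value grow. Tumour cells often gain or lose chromosomes or segments, and peak lists alone do not separate the amount of DNA from its accessibility. Mouse chromosomes have their centromere at one end, so they have no separate arms to compare. Both chromosomes carry genes of the extracellular matrix and of Wnt signalling, which directs bone formation.

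The promoters below belong to genes whose ends had peaks in 3 of 3 libraries of 1 line and in 0 of 3 of another. Minpp1, Papss2, Dkk1, Col4a1 and Hand2 are genes of the bone and cartilage list with no peak there in the null line, and Rorb is the reverse case, with no peak in the R172H line. Each sequence is the 250 bases before the RefSeq start site (build GRCm38.p6), 5′ to 3′ on the strand of the gene, with capitals marking the CG dinucleotides that are dense at promoters open in many tissues.
Minpp1 (chr19:32485519-32485768, + strand): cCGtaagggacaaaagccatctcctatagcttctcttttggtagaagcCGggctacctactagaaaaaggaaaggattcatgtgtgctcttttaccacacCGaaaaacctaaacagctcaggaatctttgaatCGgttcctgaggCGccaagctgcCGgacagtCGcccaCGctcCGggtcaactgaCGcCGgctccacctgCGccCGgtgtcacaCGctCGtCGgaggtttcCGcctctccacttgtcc
Papss2 (chr19:32595465-32595714, + strand): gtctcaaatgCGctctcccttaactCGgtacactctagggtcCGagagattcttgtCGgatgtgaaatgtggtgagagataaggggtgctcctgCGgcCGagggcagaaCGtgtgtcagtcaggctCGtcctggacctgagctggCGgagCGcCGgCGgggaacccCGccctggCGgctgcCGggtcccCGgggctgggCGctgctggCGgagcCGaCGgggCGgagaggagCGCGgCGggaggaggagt
Dkk1 (chr19:30549497-30549746, - strand): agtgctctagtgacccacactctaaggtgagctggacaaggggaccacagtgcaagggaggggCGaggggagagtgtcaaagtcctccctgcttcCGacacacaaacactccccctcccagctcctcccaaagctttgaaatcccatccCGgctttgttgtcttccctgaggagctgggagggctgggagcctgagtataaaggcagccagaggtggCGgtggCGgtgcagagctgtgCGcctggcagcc
Col4a1 (chr8:11312827-11313076, - strand): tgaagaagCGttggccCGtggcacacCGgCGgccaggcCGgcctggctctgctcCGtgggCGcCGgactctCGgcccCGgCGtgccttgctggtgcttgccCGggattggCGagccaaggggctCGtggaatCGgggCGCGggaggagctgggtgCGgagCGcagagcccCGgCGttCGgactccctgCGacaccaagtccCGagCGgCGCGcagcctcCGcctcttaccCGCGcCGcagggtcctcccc
Hand2 (chr8:57320733-57320982, + strand): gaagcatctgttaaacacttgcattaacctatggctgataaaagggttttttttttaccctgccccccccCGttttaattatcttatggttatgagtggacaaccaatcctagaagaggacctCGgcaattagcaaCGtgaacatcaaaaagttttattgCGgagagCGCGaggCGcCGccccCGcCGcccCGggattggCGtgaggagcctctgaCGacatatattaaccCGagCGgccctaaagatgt
Rorb (chr19:19111197-19111446, - strand): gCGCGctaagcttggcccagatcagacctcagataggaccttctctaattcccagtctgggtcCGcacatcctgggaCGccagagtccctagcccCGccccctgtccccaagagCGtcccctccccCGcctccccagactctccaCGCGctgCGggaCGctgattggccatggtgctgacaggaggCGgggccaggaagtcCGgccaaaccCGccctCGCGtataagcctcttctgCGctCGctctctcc
The number of CG dinucleotides was 24 for Papss2, 17 for Minpp1, 31 for Col4a1, 15 for Hand2, 18 for Rorb and 6 for Dkk1. The median was 10 over all 21262 promoters of protein-coding genes, 18 over the 942 promoters on chromosomes 8 and 19 with a peak in all 9 libraries, and 2 over the 490 there with a peak in none. The GC box GGGCGG, searched on both strands in the same 250 bases, occurred in Papss2, Hand2 and Rorb. It was present in 42.6% of all promoters, in 65.8% of members with a peak in all 9 libraries and in 9.80% of members with none. The RUNX core TGTGGT occurred in Minpp1, Papss2 and Dkk1, and in 12.4% of all promoters. It was in 10.9% of the 64 promoters of chromosomes 8 and 19 with a peak in the R172H and not the null line. Of members with a peak in all 9 libraries 9.24% had it, and of members with none 14.3%. The printed promoters thus do not stand for their class in this motif. The CCAAT box (CCAAT) occurred in Col4a1, Hand2 and Rorb and in 35.4% of all promoters. The AP-1 site TGAGTCA was in none of the printed promoters and in 4.06% of all. These matches describe the letters and not binding.

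On both chromosomes the null line had the fewest calls and the R172H line the most. On chromosome 8 the R172H libraries had 4199, 4345 and 4248 called regions, the R245W libraries 3944, 4059 and 3884, and the null libraries 3108, 3157 and 3116. On chromosome 19 the counts were 2501, 2553 and 2561 for R172H, 2392, 2461 and 2375 for R245W, and 1790, 1819 and 1798 for null. The 3 groups of libraries did not overlap on either chromosome. As a share of all called regions of a library, which sets aside the length of the lists, chromosome 8 held 5.91% ± 0.0360 (SD, n = 3) in the R172H line, 5.22% ± 0.0169 in the R245W line and 4.86% ± 0.0178 in the null line. Chromosome 19 held 3.52% ± 0.0510, 3.18% ± 0.0233 and 2.80% ± 0.00783 in the same order. The share in the R245W line was above that of the null line by 0.367 percentage points on chromosome 8 and 0.377 on chromosome 19, and below that of the R172H line by a difference of -0.683 and -0.340. Each of these 4 differences had an exact two-sided permutation p of 0.1, the smallest that 3 against 3 libraries allow, and an adjusted p of 0.1 (Benjamini-Hochberg over 4 tests), so none passed 0.05. These comparisons share libraries with the pair that selected the chromosomes, and they are not independent of the selection.

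The signal at regions open in every library followed the same order. Of the members, 1941 regions on chromosome 8 and 1225 on chromosome 19 were called in all 9 libraries, and at these the whole-number pile-up at the summit was recovered from the fold and p-value of each peak. It was put on a log2 scale and set to a median of 0 over the autosomal regions called in all libraries. The chromosome 8 medians were 0.33, 0.29 and 0.31 in the R172H libraries, 0.09, 0.08 and 0.09 in the R245W libraries and -0.10, -0.10 and -0.11 in the null libraries. For chromosome 19 they were 0.33, 0.36 and 0.40, then 0.19, 0.17 and 0.20, then -0.06, -0.05 and -0.08. The libraries of the 3 lines did not overlap. The mean difference between R172H and null was 0.41 on chromosome 8 and 0.43 on chromosome 19, and these ranked second and first of 20 chromosomes, with Y left out. The R245W line was above the null line by 0.19 and 0.25, and its difference from the R172H line was -0.22 and -0.18 (exact two-sided permutation p = 0.1 for each, adjusted p = 0.1 over 4 tests, n = 3 per line). Chromosomes 6 and 13 were further above the null line in R245W, by 0.40 and 0.33, so the 2 members were not the extreme chromosomes of that line.

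The local background differed between lines in the same order as the pile-up, and the libraries overlapped in the fold over it. The median log2 ratio of local to genome background on chromosome 8 was 1.63 ± 0.01 (SD, n = 3) in the R172H line, 1.43 ± 0.01 in the R245W line and 1.26 ± 0.02 in the null line. On chromosome 19 it was 1.68 ± 0.01, 1.53 ± 0.01 and 1.2 ± 0.03. The median fold of column 7 on chromosome 8 was 8.89, 8.51 and 8.78 in the R172H libraries, 8.86, 8.93 and 8.59 in the R245W libraries, and 8.71, 8.68 and 8.78 in the null libraries, and here the groups overlapped. On chromosome 19 the fold ran from 8.48 to 8.83 over all 9 libraries, again with overlap. The -log10 q-value of column 9, ranked among the 36473 regions called in every library, had a median percentile on chromosome 8 of 55.0 in the R172H line, 52.5 in the R245W line and 48.0 in the null line. On chromosome 19 it was 54.9, 52.0 and 47.7. Ranked by column 7 the line means of the medians lay between 46.7 and 49.1 on both chromosomes. On chromosome 19 the null libraries, at 46.6 to 46.8, lay below those of the R172H and R245W lines, at 47.7 to 49.5. The null libraries were also lowest on chromosome 8, at 47.04 to 48.19 against 48.25 to 49.69. Taken region by region and centred on the autosomal median, the R172H minus null difference was 0.40 on chromosome 8 in pile-up, 0.39 in background and -0.01 in log2 fold. On chromosome 19 these were 0.46, 0.48 and -0.00. Centring removed a shift of 0.21 over all autosomal regions in that pair, one of -0.03 for R245W minus null and one of 0.22 for R172H minus R245W. Of the common regions on chromosome 8, 71.6% lay above 0 in R172H minus null, and 76.6% did on chromosome 19, against 47.7% on the other autosomes. A difference in the amount of DNA and one in accessibility over wide stretches cannot be told apart here, since the number of DNA copies was not measured.

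**Figure D1:**
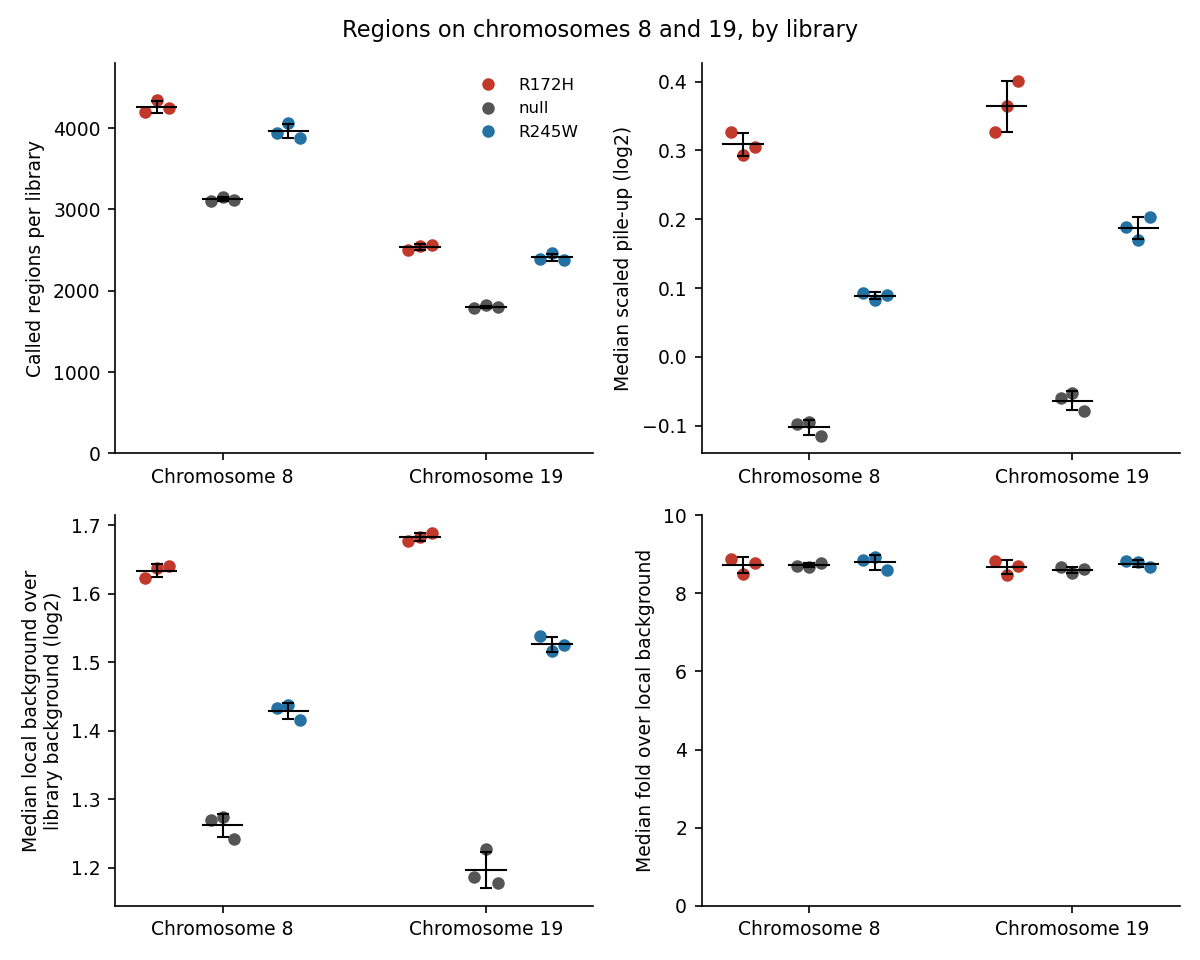
Called regions per library, median scaled log2 pile-up, median log2 local background and median fold over local background on chromosomes 8 and 19. Points are libraries, black bars the mean and SD of 3. The null libraries are lowest and the R172H libraries highest in the first 3 panels, and the lines overlap in the fold, which runs from 8.48 to 8.93.

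**Figure D2:**
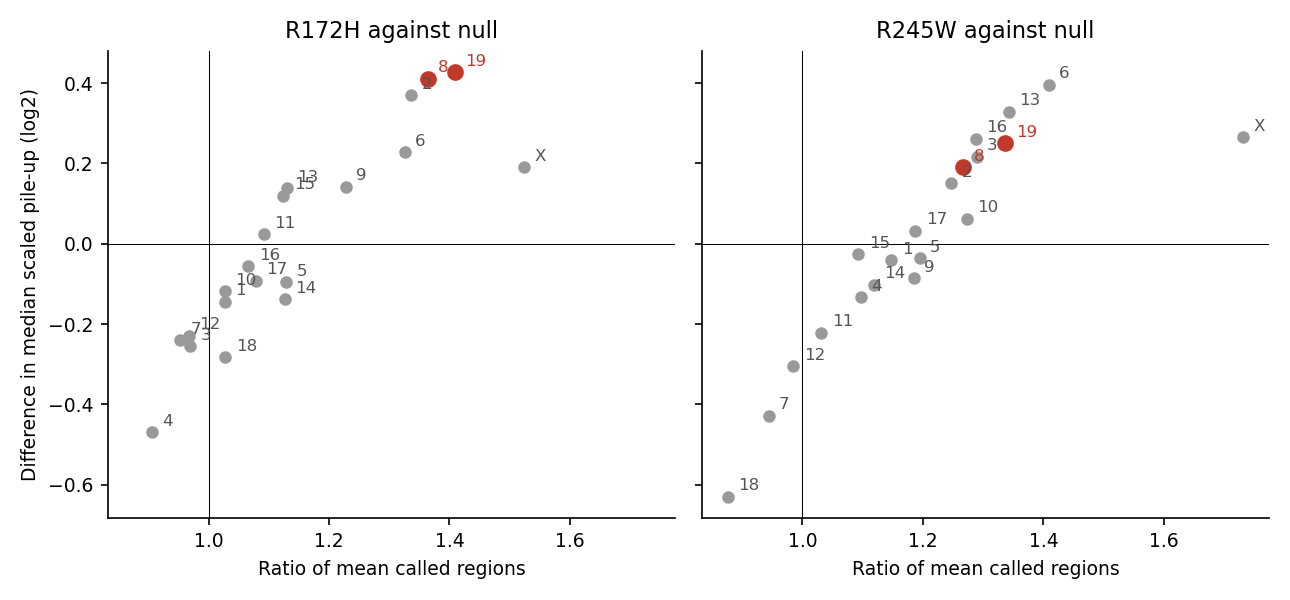
Ratio of mean called regions (horizontal axis) and difference in median scaled log2 pile-up (vertical axis) for each chromosome without Y, in R172H against null (left) and R245W against null (right). Chromosomes 8 and 19, in red, sit at the top on the left, with chromosome 2 next at 0.37, and lie below chromosomes 6 and 13 on the right.

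Along both chromosomes the shift covered the whole length rather than a part of it, but its size varied by segment. In windows of 5 Mb with at least 20 common regions, the R172H minus null difference in centred log2 pile-up was above 0 in 24 of 24 windows of chromosome 8, from 0.11 to 0.68 with a median of 0.45. On chromosome 19 it was above 0 in 13 of 13 windows, from 0.23 to 0.55 with a median of 0.44. Over 433 autosomal windows, the middle 90% ran from -0.51 to 0.46. The R245W minus null difference was above 0 in 20 of 24 windows on chromosome 8 and in 13 of 13 on chromosome 19. The R172H minus R245W difference was above 0 in 24 of 24 and in 12 of 13. The R172H line had more mean calls than the null line in 25 of 26 windows of chromosome 8, with no overlap of libraries in 24. It also had more in 13 of 13 windows of chromosome 19, with no overlap in any. Its lists were longer over the whole genome, with 71589 to 73331 called regions per library against 63910 to 64821 in the null line. The chromosomes were chosen by their calls, so these counts of windows are only a description. The window differences in pile-up and in calls had a Pearson correlation of 0.58 over 24 windows of chromosome 8 and -0.19 over 13 of chromosome 19, and all windows share the same 9 libraries.

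**Figure D3:**
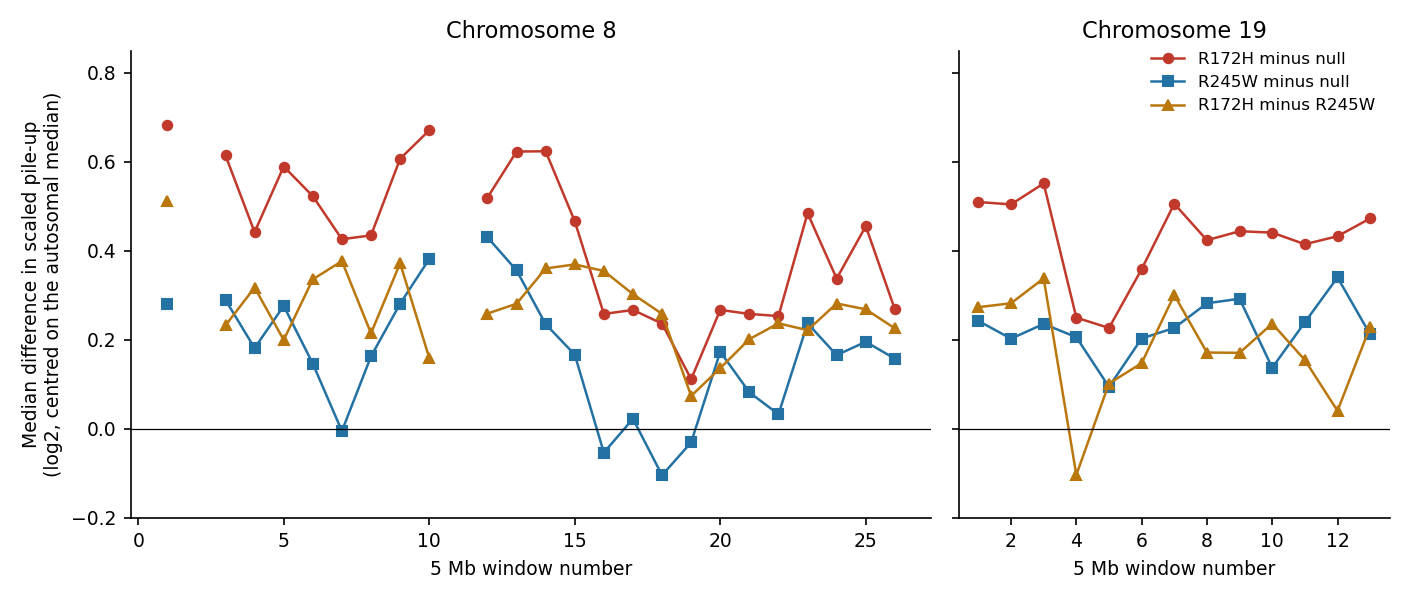
Median difference in scaled log2 pile-up between lines, centred on the autosomal median, in consecutive 5 Mb windows of chromosomes 8 and 19. Windows with under 20 common regions have no point. R172H minus null stays above 0 throughout and dips to 0.11 in window 19 of chromosome 8, while R245W minus null comes down to -0.10 in window 18.

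Chromosome 8 is given in 3 segments, whose bounds were set after the profile was seen. From 0 to 75 Mb the R172H minus null difference was 0.55 over 833 common regions, from 75 to 110 Mb it was 0.24 over 608, and from 110 to 130 Mb it was 0.43 over 500. Single pairs of libraries gave 0.52 to 0.56, 0.22 to 0.25 and 0.39 to 0.44 in the same order. These ranges show the agreement between libraries and do not test the bounds. The SD of the difference over the 5 Mb windows of the chromosome was 0.165. The R245W minus null difference was 0.22 in the first segment, -0.00 in the second and 0.19 in the third. Single pairs of libraries in the second ran from -0.02 to 0.02, so the R245W and null lines were not apart there. R172H minus R245W was 0.33, 0.21 and 0.25. Calls in the first segment were 2066 ± 49.3 per library (SD, n = 3) in the R172H line, 1775 ± 33.6 in the R245W line and 1335 ± 20.3 in the null line. In the middle segment they were 1161 ± 11.6, 1161 ± 22.1 and 968 ± 11.3, so that the R245W line had 1.2 times the calls of the null line. Its lists were also longer over the whole genome, with 74183 to 77991 called regions per library against 63910 to 64821 in the null line. The ratio of calls does not set aside this length of the lists. In the last segment calls were 1037 ± 15, 1027 ± 33.4 and 824 ± 8.62. The R172H minus null difference in log2 fold was -0.002, 0.004 and -0.025 in the 3 segments, while the background differed by 0.53, 0.22 and 0.44.

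The window at 90 to 95 Mb stood apart. Its R172H minus null pile-up difference, 0.11, was the lowest on the chromosome, and calls ran the other way, with a mean of 166 in the R172H line, 186 in the null line and 228 in the R245W line. It held 64 regions called in all null and no R172H libraries and 37 of the reverse. This window carries the Irx3, Irx5 and Irx6 homeobox genes and Mmp2, described further down. The opposite extreme in calls was the window at 60 to 65 Mb, with a mean of 150 calls in the R172H line and 63 in the null line, a ratio of 2.38, and 68 regions called in all R172H and no null libraries against 2 of the reverse.

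On chromosome 19 the R172H minus null difference was 0.51 from 0 to 15 Mb, 0.30 from 15 to 30 Mb and 0.44 from 30 to 65 Mb, over 404, 215 and 606 common regions, with bounds again set after the profile was seen. R245W minus null was 0.21, 0.14 and 0.26. R172H minus R245W was 0.29 in the first segment and 0.18 in the last, and in the middle one it was 0.06, where single pairs of libraries ran from -0.01 to 0.11, so these 2 lines were not apart there beyond the spread of the libraries. Calls in the middle segment were 491 ± 11.0 in the R172H line, 473 ± 9.61 in the R245W line and 342 ± 3 in the null line.

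**Figure D4:**
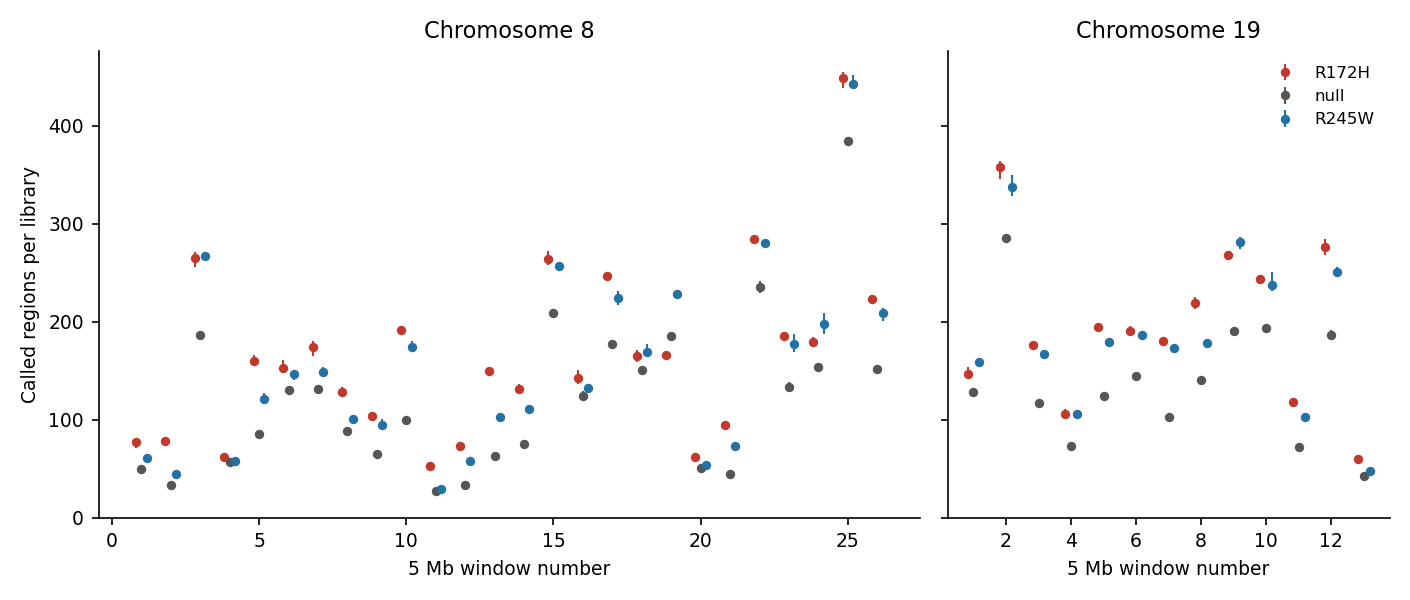
Called regions per library in consecutive 5 Mb windows of chromosomes 8 and 19. Points are the mean of 3 libraries of a line and bars run from the lowest to the highest library. The null line is lowest in nearly all windows, and window 19 of chromosome 8 is the exception, with 186 calls in the null line and 166 in the R172H line.

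Regions called in all 3 libraries of a line and in none of another are called line-specific here. Against the null line the R172H line had 1229 on chromosome 8, which is 18.2% of its regions, and 713 on chromosome 19, which is 18.4%, where 14.5% of all regions in the genome met the same rule. The reverse, null and not R172H, held for 518 regions or 7.67% on chromosome 8 and 253 or 6.52% on chromosome 19, beside 10.3% of all regions. This pair chose the chromosomes, and nothing is read from these shares. When every list was shortened to the same number of peaks on each chromosome, the counts were 774 against 741 regions on chromosome 8 and 407 against 360 on chromosome 19. Lists of equal length bring the counts of opposite directions close together by construction, so nothing is read from this nearly even split. The R245W line against the null line gave 747 regions or 11.1% and 440 or 11.3%, near the genome's 10%, and the null line against the R245W line gave 226 or 3.34% and 71 or 1.83%, beside 4.03%. With lists of equal length on each chromosome these became 432 and 215, and 372 and 170. R172H against R245W gave 937 or 13.9% and 480 or 12.4%, beside 11.5%, and R245W against R172H gave 781 or 11.6% and 444 or 11.4%, beside 13.8%.

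The R172H and not null regions mostly lay further than 1000 bp from a gene end, some of them inside genes. The lowest percentile of -log10 q among the R172H libraries had a median of 35.0 over the R172H and not null regions of chromosome 8 and 32.7 over those of chromosome 19, against 34.7 on all other chromosomes. An end of a protein-coding gene lay within 1000 bp of 5.94% and 7.29% of them, beside 6.34% on all other chromosomes. Such an end lay near 32.9% and 36.0% of the members called in all 9 libraries, beside 31.8%. The R245W libraries all had 22.5% of the chromosome 8 regions and 22.4% of the chromosome 19 regions, beside 20.8% on all other chromosomes. In 66.7% and 62.6% of them no R245W library had a peak, beside 68.1%. Most of these regions were thus open in the R172H line without the other mutant line, as on the other chromosomes. Of the null and not R172H regions, the R245W line had 62.4% on chromosome 8 and 71.1% on chromosome 19 in all 3 libraries, against 60.0% on the other chromosomes. There were 436 members called in all R172H and R245W libraries and in no null library. They made up 22.5% of the R172H and not null list and 36.7% of the R245W and not null list, which share the null libraries. On all other chromosomes these shares were 20.8% and 29.7%.

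Most genes kept an open end in every line. Of 1042 protein-coding genes on chromosome 8, 666 or 63.9% had a peak within 1000 bp of an end in all 9 libraries, and 445 of 705 or 63.1% did on chromosome 19, against 55% in the genome. An end with a peak in 3 of 3 R172H and 0 of 3 null libraries was found for 42 genes on chromosome 8 and 32 on chromosome 19, or 4.03% and 4.54%, beside 3.19% in the genome. The reverse held for 7 and 4 genes, or 0.672% and 0.567%, beside 1.27%. R245W and not null gave 32 and 22 genes (3.07% and 3.12%, beside 3.3%), null and not R245W gave 5 and 1 (0.480% and 0.142%, beside 0.544%), R172H and not R245W gave 14 and 15 (1.34% and 2.13%, beside 1.61%), and R245W and not R172H gave 16 and 11 (1.54% and 1.56%, beside 2.57%).

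Some stretches held no peak in any library of 1 line although the 6 libraries of the others shared regions there. Of those of the R172H line on chromosomes 8 and 19, the one with the most shared regions lay on chromosome 8, at chr8:92849154-92999109 (GRCm38), or 150 kb. The null libraries had 13, 13 and 14 peaks there and the R245W libraries 12, 12 and 12, in 16 regions, 9 of them called in all 6. It was stretch number 2 of that line in the genome. It overlaps Mmp2, a gelatinase of bone and stroma, Lpcat2, a phospholipid acyltransferase, Capns2, a calpain subunit, and Slc6a2, the noradrenaline transporter. Slc6a2 had no peak in any R172H library, 7, 7 and 8 in the null libraries and 7, 7 and 6 in the R245W libraries. Its end at chr8:92960184-92961250 had folds of 5.63, 5.06 and 5.0 in the null line and 6.50, 5.71 and 7.12 in the R245W line. An end of Mmp2 outside the stretch was open in every library, with folds of 7.20, 7.77 and 7.19 in the R172H line, 8.42, 7.61 and 7.30 in the null line and 7.79, 9.34 and 9.08 in the R245W line.

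**Figure D5:**
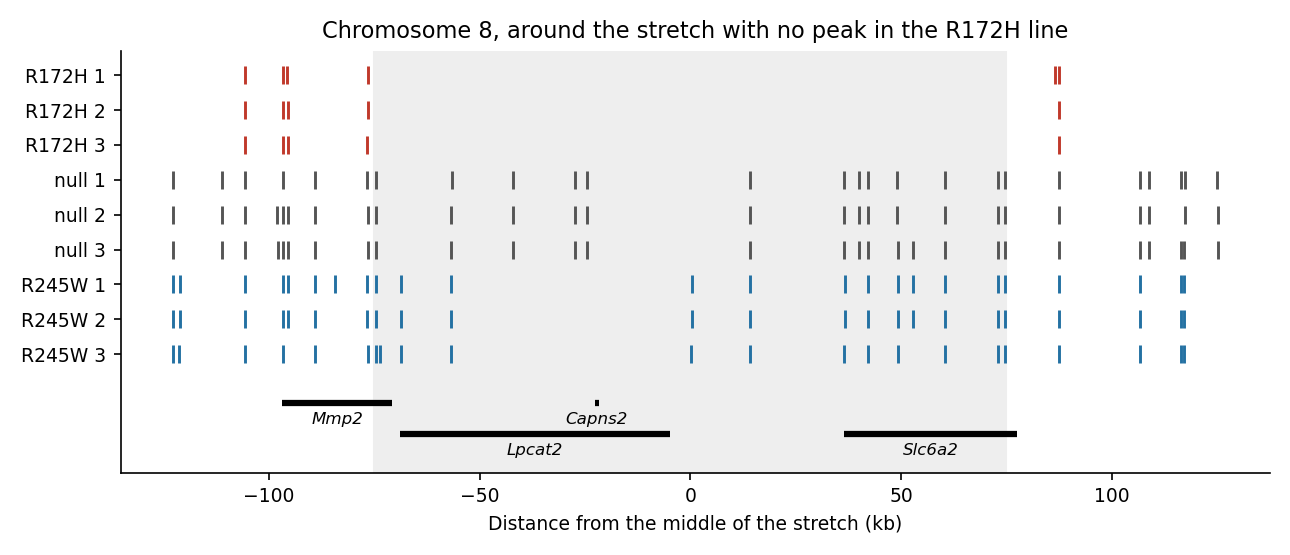
Peak summits (ticks) in each library by distance in kb from the middle of a stretch of chromosome 8, shaded, with protein-coding genes that overlap it as black bars. The R172H libraries have 0 peaks across 150 kb that include most of Slc6a2, and the null and R245W libraries have 12 to 14 each.

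A further R172H stretch, chr19:32956486-33223954, was 267 kb long. It overlaps no protein-coding gene. The null libraries had 9, 8 and 9 peaks in it and the R245W libraries 12, 12 and 12. The null line had such a stretch at chr19:40231004-40268994 in Pdlim1, a cytoskeletal adaptor, with 9, 7 and 6 peaks in the R172H line and 6 in each R245W library, and others at chr8:48246280-48827711 in Tenm3 and at chr8:56703758-57322473, which ends at Hand2. Missing DNA and closed chromatin cannot be told apart from these lists. The R245W line had no stretch on these chromosomes with more than 2 regions that all 6 other libraries shared, and these lay in Rbpms and Mamdc2.

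Of 88 genes on a list of cancer genes of these chromosomes, 56 lie on chromosome 8 and 32 on chromosome 19, and their ends were open in all 9 libraries for 44 and 26. On chromosome 8, 28 of the 56 had more R172H than null line-specific regions and 7 had fewer, with a median net of 0.5 regions per gene. Over all 912 genes with a member region there, 313 had more and 116 fewer, with a median of 0. The chromosome 19 counts were 17 more and 3 fewer of 32, median 1, beside 219 and 58 of 601, median 0. The cancer genes also had more regions to begin with, a median of 8.5 and 5.5 per gene against 4. For R245W against null, 27 of 56 and 10 of 32 had more and 5 and 4 had fewer, beside 264 more and 65 fewer of all 912 genes and 200 more and 30 fewer of all 601. On chromosome 19 that is 31.3% of the list with more, against 33.3% of all genes. The ends with this R172H and not null pattern included those of Angpt2, Fat1, Lyl1 and Cdh3 on chromosome 8 and of Il33 and Pdcd4 on chromosome 19, and the reverse held for 0 genes of the list.

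Among the genes of growth factor signalling, Gab1, an adaptor that links receptor tyrosine kinases to PI3K and MAPK signalling, had the most line-specific regions of chromosome 8. Its regions were called 20, 19 and 21 times in the R172H libraries, 12, 14 and 12 times in the R245W libraries and 5, 5 and 5 times in the null libraries. Of its 30 regions, 12 were R172H and not null, 0 the reverse, 6 R245W and not null, and 5 were called in all 9 libraries. Its own end was open throughout, with folds of 9.96 to 10.6 in the R172H line, 10.3 to 10.6 in the null line and 9.36 to 9.55 in the R245W line. Angpt2, a ligand of the Tie2 receptor in vessels, had 7 regions of R172H and not null, and Irs2, an insulin receptor substrate, had 4. Nrg1, a ligand of ErbB receptors, had 4, and Fgfr1, a fibroblast growth factor receptor, had 3, with its end open in all libraries. With lists of equal length on each chromosome the count was 6 for Gab1, 4 for Angpt2, and 2 each for Irs2 and Nrg1.

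On chromosome 19 the cytokine gene Il33 had an end open in the R172H line with folds of 6.11, 6.49 and 7.01, and no peak there in the other 6 libraries. It had 4 regions of R172H and not null and 3 of the reverse, so the gene as a whole did not go one way. Jak2, a kinase of cytokine receptors, had 3 and 0, Fas, a death receptor, had 3 and 0, and Sufu, an inhibitor of Hedgehog signalling, had 4 and 2, each with an end open in all 9 libraries. Pdcd4, a translation inhibitor, had a weak end in the R172H line, with folds of 2.63, 2.95 and 2.83.

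The bone and cartilage list held 38 genes on chromosome 8 and 18 on chromosome 19. On chromosome 8, 17 had more R172H than null regions and 5 had fewer, and on chromosome 19 the counts were 8 and 1. Those with more made up 44.7% and 44.4%, beside 34.3% and 36.4% of all genes. The median net was 0 on both chromosomes, as over all genes. For R245W against null the counts were 15 and 0, and 8 and 1, or 39.5% and 44.4% with more, beside 28.9% and 33.3% of all genes. The list had a median of 6.5 and 5.5 regions per gene, against 4 over all genes. Col4a1 and Col4a2, basement membrane collagen chains that share a promoter, had 1 region over their facing ends, chr8:11311655-11313792, with folds of 10.6, 9.48 and 10.3 in the R172H libraries, 8.15, 7.21 and 6.89 in the R245W libraries and no peak in the null libraries. Hand2, a transcription factor of limb and jaw patterning, had folds of 10.1, 10.2 and 10.8 in the R172H line and 8.96, 8.63 and 8.12 in the R245W line at chr8:57320685-57322473, and no null peak. On chromosome 19, Minpp1, an inositol polyphosphate phosphatase, had folds of 14.7, 14.4 and 14.5 in the R172H libraries and 11.8, 12.0 and 12.4 in the R245W libraries at chr19:32485248-32487395. Papss2, which makes the sulfate donor for cartilage proteoglycans, had 10.8, 9.86 and 9.05, and 9.03, 10.5 and 10.1, at chr19:32595170-32596391. The null libraries had no peak at either end. Both ends lie in the same part of chromosome 19, so they are not independent cases. Sall1, a zinc finger factor of limb and kidney, had folds of 4.88, 4.73 and 4.95 in the R172H line, a peak in 2 R245W libraries and in no null library. Tll1, a protease that processes procollagen and chordin, had folds of 6.36, 6.87 and 6.79 in the R172H line and 6.43, 6.98 and 7.12 in the R245W line, and a weak peak of 3.12 in 1 null library. Cdh11, the osteoblast cadherin, was open in every library, with folds of 8.34, 7.92 and 7.34 for R172H, 5.81, 6.85 and 6.02 for R245W and 5.05, 4.25 and 3.93 for null, and its 4 regions of R172H and not null faced 0 of the reverse. The groups did not overlap at that end.

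The Irx genes are homeobox factors of embryonic patterning. Irx5 had 4 regions of R245W and not null and 4 of R245W and not R172H, which were 2 and 2 with lists of equal length on each chromosome, and its end was open in all libraries. The end of Irx6 was open in the 3 R245W libraries, with folds of 9.94, 7.99 and 9.65, and no peak in the other 6 libraries. Irx3 had 3 regions of R245W and not R172H and an end open in all libraries.

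The Wnt list held 5 genes on chromosome 8 and 9 on chromosome 19. Among secreted inhibitors of Wnt ligands, Sfrp1 had folds of 12.4, 12.0 and 12.6 in the R172H libraries and 11.5, 12.3 and 11.3 in the R245W libraries at its end, chr8:23410895-23412304, and a peak of 2.99 in 1 null library with none in the others. It had 6 regions of R172H and not null and 5 of R172H and not R245W, so the lines with open ends still differed in the regions around the gene. Dkk1, which blocks the Wnt co-receptors and acts in bone, had folds of 4.16, 3.93 and 4.13 in the R172H line and 7.25, 5.86 and 5.35 in the R245W line, at chr19:30548639-30549680, and no null peak. Of the intracellular members, Nkd1, a feedback inhibitor, was open in all lines with folds of 10.5, 10.6 and 11.1 in R172H, 10.7, 10.4 and 9.58 in R245W and 5.15, 5.11 and 4.84 in null, and had 6 regions of R172H and not null. Tle4, a corepressor of the pathway's transcription factors, had 5 such regions and 0 of the reverse, and Tcf7l2, one of those factors, had 5 and 2. With lists of equal length on each chromosome Nkd1 had 3 and Tcf7l2 had 2. The receptor gene Lrp5, which sets bone mass, had 1 region in each direction, with folds at its end of 9.95, 9.01 and 9.89 in R172H, 7.20, 7.15 and 7.30 in R245W and 5.22, 5.85 and 6.28 in null. Counted over the list, 3 of 5 genes on chromosome 8 and 5 of 9 on chromosome 19 had more R172H than null regions and 0 had fewer, with median nets of 2 and 1 beside 0 for all genes, of which 34.3% and 36.4% had more. The Wnt genes had a median of 11 and 9 regions per gene, against 4 over all genes.

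Outside these lists, Aldh1a1, which makes retinoic acid, had the most R172H and not null regions of chromosome 19, 9 of 14. Its regions were called 11, 12 and 9 times in the R172H libraries, 8, 7 and 8 times in the R245W libraries and 0 times in each null library. Its end was open in the R172H line, with low folds of 3.55, 4.31 and 4.98, and in no other library. Gpam, the first enzyme of glycerolipid synthesis, and Ppp1r3c, a glycogen-targeting phosphatase subunit, had 7 each. Gpam had 3 with lists of equal length on each chromosome.

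Regions of the opposite direction gathered at other genes, some of them on the lists. On chromosome 8, 28 cancer genes had more R172H regions and 7 had more null regions. Among the latter, Ankrd11, also on the bone list, had 4 regions of null and not R172H and 2 of the reverse. Brd7 had 3 and 1, and Jak3 and Plcg2 had 2 and 0 each. Mmp2, on the bone list, had 4 and 0. Slc6a2 had 7 regions of null and not R172H on chromosome 8, and Rasa3, a Ras GTPase-activating protein, had 6 and none of the reverse. The end of Rasa3 was open in every library. Rasa3 also had 5 regions of null and not R245W, so its regions were set apart in the null line from both mutant lines: they were called 13, 16 and 16 times in the null libraries, 8, 9 and 8 times in the R172H libraries and 8, 9 and 10 times in the R245W libraries. On chromosome 19, Glis3, a zinc finger factor, had 7 of null and not R172H and 8 of R245W and not R172H, but also 5 of R172H and not null. Prune2 had 4 and 0, and Cemip2, a cell surface hyaluronidase, had 4 in each direction. Between the mutant lines, Cmip had 7 regions of R245W and not R172H and 0 of the reverse, and Wwp2, a ubiquitin ligase of cartilage, had 6 and 1. Itgb1, an integrin beta chain, had 7 regions of R245W and not null. With lists of equal length on each chromosome these were 3 for Wwp2, 5 for Glis3 and 3 for Itgb1.

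The line-specific regions below were picked as the strongest by -log10 q, so their ranks among the peaks of their libraries follow from the choice. In Sgms1, a sphingomyelin synthase gene, chr19:32372091-32373061 had folds of 16.4, 15.3 and 16.2 in the R172H libraries, at or above the 98.2 percentile of -log10 q, and no peak in the other 6. Wdr17 had one at chr8:54723968-54725034, with folds of 16.4, 15.6 and 17.3 in the R172H line and 15.6, 14.3 and 12.8 in the R245W line and no null peak. A region with no gene end within 50000 bp, chr8:57190768-57191553, had folds of 16.9, 17.8 and 18.3 in the R172H line and no peak elsewhere. This region lies in the null stretch that ends at Hand2, so it and the Hand2 end are not independent cases. In the other direction, chr8:25342879-25343953 had folds of 13.3, 11.6 and 12.8 in the null line and 12.7, 13.6 and 13.3 in the R245W line, with no R172H peak. The promoter of Rorb, a nuclear receptor gene, lay in chr19:19110063-19111953, with folds of 8.15, 5.98 and 7.46 in the null line, 10.0, 9.79 and 10.0 in the R245W line and no R172H peak. Next to Got1, chr19:43498709-43499626 had folds of 13.3, 13.5 and 12.5 in the null line and 9.59, 10.8 and 10.6 in the R245W line. Of the null regions absent from the R245W line, the strongest by -log10 q had a lowest percentile of 81.3 on chromosome 8, near Ciapin1, with folds of 9.59, 9.35 and 9.90, and of 66.3 on chromosome 19, near Ostf1, with folds of 6.19, 6.12 and 5.40. Others of that kind had higher folds, such as 14.5, 14.4 and 14.5 near Rpgrip1l and 11.1, 9.53 and 10.8 near Mamdc2.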

How the data were processed

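ATAC-seq peak lists of 9 libraries were used, 3 from each of 3 cell lines, each list called per library. The submitters' processing notes name the mouse build GRCm38, MACS2 2.1.0 and Bowtie 1.1.2, and also Trimmomatic 0.33, bcl2fastq 2.17 and, without a version, deepTools. For settings, filters and a Tn5 shift the entry is: not given in the sources used here. The deposited lists hold, as the authors' caller wrote them, a score per peak, the fold over local background as a ratio, and -log10 p and -log10 q values.

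Peaks of all lists were merged at an overlap of 1 bp. Because the fold and p-value of a peak fix a Poisson count, the whole-number pile-up and its local background were solved for each peak. Log2 pile-ups were scaled by the library median over autosomal regions called in all 9 libraries. Two-sided exact permutation tests over libraries compared the R245W line with the other lines, adjusted by Benjamini-Hochberg over 4 tests per measure, and the R172H line was compared with the null line by description. The R245W comparisons share libraries with that pair. Gene ends were the ends of protein-coding genes in a RefSeq table, which gives spans without exons, and a region was assigned to the nearest end within 50000 bp. Named genes were members of the cancer, bone and Wnt lists with an end open in all libraries of a line and none of another, with 2 or more line-specific regions, or with the most regions (4 per list and chromosome), and, per pair and chromosome, the 3 genes with the most line-specific regions and the 3 strongest such regions, and the text gives a selection of them. Stretches without peaks, and Mmp2, were picked after their values were seen. Some items are not reported here. Members and lists were chosen with earlier results of these data known. Alternatives changed the peak threshold, list lengths, merging, scaling and libraries. Same-numbered libraries did not deviate together, so numbers did not pair them. Scripts ran in Python 3.11.15 with scipy 1.17.1, numpy 2.4.6, matplotlib 3.10.9 and pandas 2.3.3, and were tested on simulated data.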

Additional observations from a re-analysis of the deposited data

How the results depend on the processing

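Depth is unknown, so no counting interval could be given, and a region without a peak is one below the caller's threshold in that library. With the fold of column 7 in place of the pile-up, R245W minus R172H turned to 0.0084 on chromosome 8 and 0.013 on chromosome 19, and R172H minus null was 0.018 and 0.028. Other choices kept the R172H minus null pile-up above 0: it was 0.45 and 0.47 when scaled by the other autosomes, 0.35 and 0.49 away from gene ends, and 0.44 on chromosome 8 at gene ends. The share of calls in that pair was higher by 0.909 percentage points on chromosome 8 and 0.658 on chromosome 19 at a -log10 q of 5 or more, and by 0.955 and 0.676 with every list shortened to the shortest. On chromosome 8 it was 1.02 with windows around summits and 1.1 as a share of autosomal regions. With the same number of peaks on each chromosome, R172H and not null gave 774 and 407 regions, R245W and not null 432 and 215, and null and not R245W 372 and 170, and the last gave 118 on chromosome 19 with lists shortened to the shortest. Equal numbers of peaks bring the counts of opposite directions close together by construction. The causes of these changes were not tested. Leaving out each library in turn kept the shares, the pile-up differences and the counts per chromosome near their values, and moved 85 of 2052 counts at named genes by over 1.5 times. Over these, R172H minus null pile-up ran from 0.40 to 0.42 on chromosome 8 and from 0.41 to 0.45 on chromosome 19. The difference taken region by region was added after seeing the data and is given with the results.

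With the replicate block, R245W minus null in share was 0.367 and 0.377 and R245W minus R172H was -0.683 and -0.340, as without it, each with an exact sign-flip p of 0.25, the smallest that 3 pairs allow. Same-numbered libraries had correlations of their deviations from -0.02 to 0.02 over 9 pairs, as did those with other numbers. Of 83 counts of 4 or more line-specific regions at a named gene, 36 moved by over 1.5 times under at least 1 alternative and 82 were above 0 under every alternative, and the exception was Angpt2 in R245W and not null, with 0 at a -log10 q of 5 or more and in both kinds of shortened lists.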

Other observations

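Some strong regions separated the lines in degree, in presence or in both. At Dlc1, chr8:36565622-36566597 had folds of 15.1, 14.1 and 12.9 in the R245W libraries, 5.72, 5.37 and 5.26 in the R172H libraries and no peak in the null libraries. Near Wwox, a gene lost in some tumours, chr8:115326489-115327794 had folds of 12.8, 12.2 and 12.1 in the R172H line, 4.41 in 1 null library and no peak in the R245W line. In Rbpms, an RNA-binding protein gene, chr8:33902313-33903272 had folds of 10.2, 10.5 and 10.3 in the R172H line, 9.52, 8.35 and 8.73 in the null line and no R245W peak. Near Efnb2, an ephrin ligand, chr8:8593412-8594378 had folds of 13.3, 12.3 and 14 in the null line, 9.23, 9.68 and 8.40 in the R245W line and no R172H peak. Efnb2 as a whole had 3 regions of R172H and not null and 1 of the reverse, and an end open in all libraries. The regions given here were chosen as the strongest of their kind, and no test was made of them.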
